A study of Drosophila melanogaster with 4 samples.

Results

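Cells of the Drosophila wing disc depleted of Cdk8, CycC and Med12 together were set against cells depleted of Med12 alone, a comparison that bears on the added loss of the Cdk8-CycC pair on top of Med12 loss. The members were all genes listed in both of the authors' deposited tables for these genotypes, 5191 of the 7451 genes listed in at least 1 of them. They made up 81.4% of the combined table and 93.2% of the Med12 table. A further 1186 genes were listed only in the combined table and 377 only in the Med12 table, and these have no difference.

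Single-cell RNA was collected from wing discs of third-instar larvae, with 100 to 120 discs pooled into 1 library per genotype. Every genotype carried the ap-Gal4 driver with UAS-GFP, which is active in the dorsal compartment. The Med12 genotype added UAS-Med12i and the combined genotype added UAS-Cdk8i-cycCi-Med12i, each transgene in 1 copy. A control with the driver and GFP only, and a genotype with UAS-Cdk8i-cycCi, served as the second background below. In each library the authors compared GFP-positive cells, where the RNA interference acts, with GFP-negative cells of the same discs. The pouch marker nub was detected in 100% of both cell sets in the authors' deposited tables, so the tables hold nub-positive cells.

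For each gene the log2 fold of GFP-positive over GFP-negative cells in the Med12 library was subtracted from that in the combined library. A positive fold difference means that the gene was relatively higher in the depleted cells when Cdk8 and CycC were targeted as well. A detection difference was formed in the same way from the log2 ratio of the shares of cells in which a gene was detected, and was centred on its median over all members. With 1 library per genotype there is no replicate error, no test was possible, and genotype and library cannot be told apart, so every value below describes these libraries. Genes were counted as higher or lower where the difference reached 1.3-fold and the gene was detected in at least 10% of 1 cell set, a limit that 4981 members met and 210 did not.

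Cdk8, its partner cyclin CycC, Med12 (the product of kto in the fly) and Med13 (the product of skd) form the kinase module of Mediator. Mediator connects transcription factors to RNA polymerase II, and the kinase module binds it reversibly. Med12 activates the Cdk8 kinase and Med13 tethers the module to the core, so that the kinase pair and Med12 have shared as well as separate roles. In the fly Cdk8 and CycC also restrain SREBP, the activator of fatty acid synthesis genes, and the kinase module has been linked to Notch, Wingless and EGFR outputs.

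The 2 transcripts targeted only in the combined genotype were lower in its depleted cells. Shares of cells are given below with the GFP-positive cells first. CycC had shares of 32.8% and 48.0% in the combined library against 70.7% and 54.5% in the Med12 library, in the authors' deposited tables. The higher cell set thus changed sides, and the fold difference of CycC was -0.31, the fourth lowest of all members. Cdk8 was detected in 16.8% and 21.5% of the cell sets in the combined library and in 38.9% and 26.2% in the Med12 library, by the authors' deposited tables. Its fold difference was -0.10, and its detection difference of -0.98 was as low as that of CycC, also -0.98. kto, targeted in both genotypes, had shares of 35.0% and 45.4% in the combined library and 32.0% and 38.9% in the Med12 library, by the authors' deposited tables. It was lower in the depleted cells of both, with folds of -0.22 and -0.15, and its difference was -0.07. skd was listed in the combined table and not in the Med12 table, and so had no difference. GFP itself had folds of 4.28 and 4.45 in the combined and Med12 libraries, and w, the eye colour gene used as a transgene marker, 2.44 and 2.42.

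By fold the libraries differed little across all members. The median fold difference was 0.0022 on the log2 scale, the central 95% of members lay between -0.09 and 0.10, and 2734 members (52.7%) were above 0. No member was higher by 1.3-fold (0% of those tested) and 3 were lower (0.0602%). The added targets CycC and Cdk8, at -0.31 and -0.10, did not reach this limit either, so the count can miss real changes. The fold difference also varied less for genes seen in few cells. Its standard deviation over genes was 0.023 below 10% detection and 0.060 from 75% upward. These 3 were CG7322, grass and bnb. At 1.1-fold, a limit chosen after the values were seen, 37 members were higher (0.743%) and 33 lower (0.663%).

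**Figure D1:**
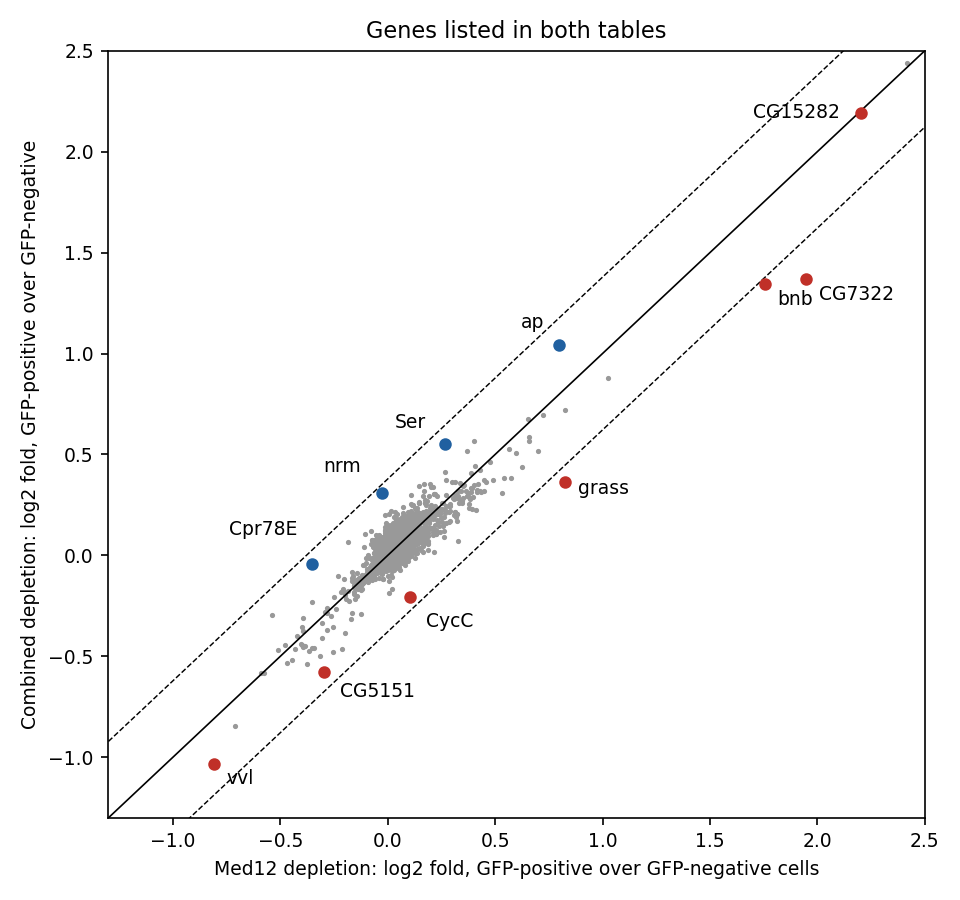
Log2 fold of GFP-positive over GFP-negative cells in the Med12 library (x) against the combined library (y), 1 point per gene, with named genes marked and GFP and Ubx outside the axes. Most genes lie near the line of equality; CG7322, grass, bnb and CycC lie below it and nrm, Ser and ap above it.

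The detection ratios had a wider spread, but their scale is unlike that of the fold and the sizes cannot be set side by side. In the median member the share was 51.4% for depleted and 35.6% for GFP-negative cells of the combined library, and 50.9% and 37.4% for those of the Med12 library. The ratio was accordingly above its Med12 value for 75.6% of members before centring, with a median difference of 0.05. Before centring 131 members (2.63%) were higher by 1.3-fold and 17 (0.341%) lower. After centring, 96 members were higher by 1.3-fold (1.93% of those tested) and 25 lower (0.502%). Of these, 48 of the higher and 12 of the lower genes were detected in at most 25% of cells. Each share was also compared between the libraries as a ratio, centred on its median over all members. Among the 96 higher genes, 51 had a centred GFP-negative ratio lower by 1.3-fold, 24 a centred GFP-positive ratio higher by 1.3-fold, and 22 met neither. In the former 51 genes the cells without RNA interference differed, but the GFP-positive share was not required to be level. ImpE3 was among them, and its GFP-positive share was also lower, at 44.0% against 69.6% in the authors' deposited tables. No member passed the 1.3-fold rule on both fold and detection in the same direction.

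The highest fold difference belonged to nrm, which encodes the immunoglobulin-family adhesion protein Neuromusculin. The authors' deposited tables gave nrm shares of 54.8% and 20.3% in the combined library against 23.3% and 17.2% in the Med12 library. The folds were 0.31 and -0.03, giving a difference of 0.34, and the detection difference was 0.94. The depleted cells carried the change, while the GFP-negative shares stayed close. nrm was also higher in GFP-positive cells of the Cdk8-CycC library, where the authors' deposited table gave shares of 33.8% and 9.7% with a fold of 0.19, and it was not listed in the control table.

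Cpr78E, described below, was the second highest, and Ser and ap, genes of the dorsal compartment, followed. Ser, a Notch ligand that marks dorsal cells, was detected in 77.5% and 38.2% of the cell sets in the combined library and in 70.8% and 42.4% in the Med12 library, in the authors' deposited tables. Its fold went from 0.27 to 0.55, a difference of 0.28. ap, the dorsal selector gene whose enhancer drives the Gal4, had a fold of 1.04 against 0.80, a difference of 0.25. Its shares of 68.1% and 6.9% against 66.2% and 7.1% in the authors' deposited tables were nearly level, and its detection difference was 0.03. Bx, a target of Apterous, differed by 0.15. Of the 8 listed dorsal genes 5 were above 0, with a median of 0.04, but bnb was at -0.41, Dr at -0.09 and fng at -0.04, so the dorsal genes did not share a direction.

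A number of genes linked to Hedgehog signalling and to wing veins were relatively higher. ptc, the Hedgehog receptor and a target of the pathway, had a fold of 0.22 against 0.01, a difference of 0.21. Its shares of 57.0% and 41.3% against 50.5% and 36.7% in the authors' deposited tables were higher in both cell sets. The detection difference of ptc was -0.05. nord, which encodes a Hedgehog-induced modulator of BMP signalling, was detected in 19.8% and 9.2% against 17.0% and 10.8% of cells in the authors' deposited tables and differed by 0.21. dpp, the BMP ligand expressed at the compartment border, was detected in 38.1% and 21.5% against 33.0% and 26.3% in the authors' deposited tables. Its fold difference was 0.18 and its detection difference 0.45, past the rule for detection. The list of Hedgehog genes as a whole was spread around 0, with 7 of 13 above 0 and a median of 0.01, and boi, ihog and ci, a pair of co-receptors and the pathway's transcription factor, stood at -0.09, -0.07 and -0.06. Among 5 vein genes 4 were above 0, with a median of 0.09. These were mirr, an Iroquois-complex transcription factor, at 0.21, vn, the neuregulin-like EGFR ligand, at 0.15, px at 0.09 and pnt, an ETS factor of the EGFR pathway, at 0.08. vn was detected in 59.7% and 38.5% of cells in the combined library and in 48.2% and 35.2% in the Med12 library, in the authors' deposited tables.

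**Figure D2:**
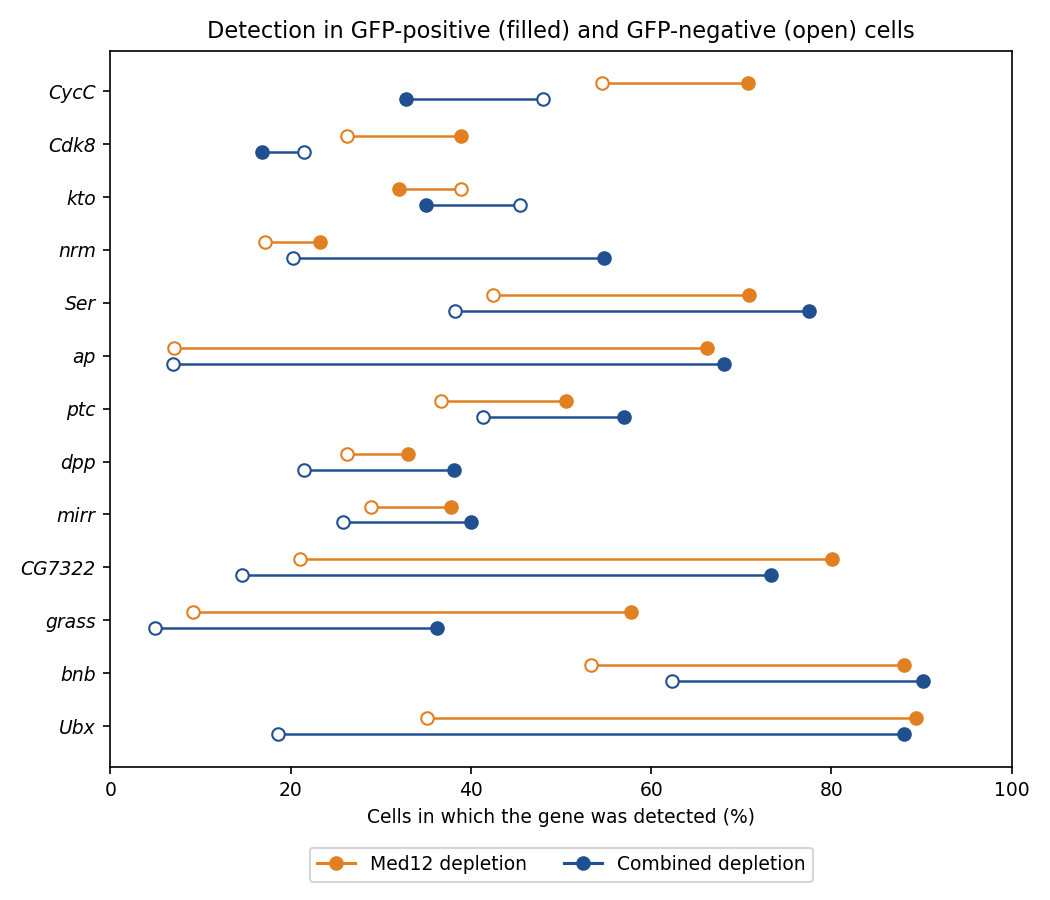
Share of cells (percent) in which each named gene was detected, for GFP-positive and GFP-negative cells of the Med12 and combined libraries, as the authors deposited them. For nrm the GFP-positive share is 54.8% in the combined and 23.3% in the Med12 library, while for CycC it is 32.8% and 70.7%.

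The other genes among the 12 highest had mixed patterns. Cht10, a chitinase, had a fold of 0.20 against 0.01, and Hsp67Ba, a small heat shock protein gene, 0.30 against 0.11. Cys, a cystatin-like protease inhibitor, was detected in 32.8% and 7.8% of cells against 20.4% and 5.8% in the authors' deposited tables, a share that was larger in both cell sets of the combined library. Su(Tpl), an elongation factor of the ELL family, differed by 0.20. Cpr78E, a cuticle protein gene, and Spn43Aa, a serpin, were lower in depleted than in GFP-negative cells of both libraries, and by the fold less so in the combined one, with differences of 0.31 and 0.24. By detection their differences had the opposite sign, at -0.35 and -0.08. The same held for Su(Tpl) at -0.09 and Cht10 at -0.03.

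The lowest member was CG7322, which encodes a predicted short-chain dehydrogenase. It was detected in 73.3% and 14.6% of the cell sets in the combined library and in 80.1% and 21.0% in the Med12 library, in the authors' deposited tables. Its fold went from 1.95 to 1.37, a difference of -0.58, so it remained high in depleted cells of both, while its detection difference had the opposite sign at 0.34. grass, a serine protease of the Toll pathway, behaved in the same way, with folds of 0.83 and 0.37, a difference of -0.46 and a detection difference of 0.15. Its shares were 36.2% and 5.0% against 57.8% and 9.2% in the authors' deposited tables, lower in both cell sets of the combined library. bnb, a further gene with high folds in both, had shares of 90.2% and 62.3% against 88.0% and 53.3% in the authors' deposited tables. It differed by -0.41, with folds of 1.76 and 1.34, and its detection difference of -0.24 had the same sign as the fold.

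Genes that were already below GFP-negative levels under Med12 depletion made up much of the rest of the 12 lowest. vvl, a POU-domain factor, had a fold of -1.03 in the combined library and -0.81 in the Med12 library, a difference of -0.22. ds, the atypical cadherin that binds Fat in the Hippo and planar polarity pathways, had -0.48 and -0.25, a difference of -0.23. The shares of ds were higher in both cell sets of the combined library, at 85.8% and 81.4% against 71.7% and 68.3% in the authors' deposited tables. Ten-m, a teneurin, had -0.46 and -0.21, a difference of -0.25. CG5151 had -0.58 and -0.30, a difference of -0.28, and its exons overlap those of CG5157 and CG32152 on the same strand, so its reads cannot be assigned with certainty. The transcription factor gene ct went from 0.01 to -0.19, while its detection difference was 0.19. The genes Had1, bcn92 and Edg78E were above GFP-negative levels in both libraries and less so in the combined one, with differences of -0.25, -0.22 and -0.20.

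Most genes of the wing pouch pointed the same way as ds by fold. Of 7 listed pouch genes 2 were above 0, and the median was -0.07. By detection 3 of the 7 were above 0 and 4 below. elB was at -0.19, pdm2, the neighbour and paralog of nub, at -0.12, fj, the Golgi kinase that modifies Fat and Ds, at -0.11, nub at -0.07 and klu at -0.06. vg, the wing selector, was at 0.03 and Doc2 at 0.08. None of the 7 reached 1.3-fold. Genes of the hinge had 3 of 9 above 0 with a median of -0.02, and genes of the notum 6 of 8 with a median of 0.04.

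Several cuticle and hormone-response genes differed between the libraries in both cell sets. Cpr78E had shares of 3.3% and 5.8% in the combined library and 14.9% and 21.3% in the Med12 library, in the authors' deposited tables. Edg78E, an ecdysone-dependent cuticle gene, was at 2.6% and 0.4% against 14.6% and 2.3% in the authors' deposited tables. ImpE3, an ecdysone-inducible gene, was at 44.0% and 27.2% against 69.6% and 59.1% in the same deposited tables of the authors. These 3 genes were thus seen in fewer cells of the combined library, depleted or not. Their lists as a whole did not differ in this way. The 20 cuticle genes had summed shares of 1029.7 and 793.4 percentage points in the combined library against 994.0 and 771.5 in the Med12 library. For 11 ecdysone response genes these sums were 638.9 and 494.1 against 629.3 and 498.8. The cuticle gene Cpr49Ah was at 71.4% and 48.9% against 61.7% and 32.0% in the authors' deposited tables. Whether the discs of the 2 libraries differed in age was not tested. The 20 listed cuticle genes had a median fold difference of -0.0083, with 8 above 0.

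The genes with the largest detection differences were mostly detected in few cells. CG1139 headed them at 2.85, with shares of 19.0% and 0.2% in the combined library against 26.7% and 2.1% in the Med12 library in the authors' deposited tables. CG3097 followed at 1.39, with 52.9% and 3.0% against 54.5% and 8.4% in the authors' deposited tables. In CG3097 the GFP-negative share was the one that differed, while in CG1139 both shares were lower in the combined library. CG31999 and CG9336 had larger GFP-positive shares in the combined library, at 21.4% against 6.6% and 15.5% against 3.9% of GFP-positive cells in the authors' deposited tables, with detection differences of 1.24 and 1.23. cysu at 1.21 and CG9312 at 1.11 completed the 6 highest. Ubx was at 0.84, with shares of 88.1% and 18.6% against 89.4% and 35.1% in the authors' deposited tables and folds of 4.51 and 4.58. At the low end, beside Cdk8 and CycC, stood phm, an enzyme of ecdysone synthesis, at -1.08 and upd1, a ligand of the JAK-STAT pathway, at -0.75. CG2003 was at -0.73 and CG8353 at -0.65. Hsp70Bb was at -0.59, but its near-identical copies share reads, so that value is uncertain. Among the listed genes that passed the rule, PGRP-LC, a peptidoglycan receptor, was at 0.99, scb, an integrin subunit, at 0.52, Fkbp14, a peptidyl-prolyl isomerase, at 0.41 and the homeobox genes eyg and Abd-B at 0.40 and 0.39. Lower ones were the cuticle protein gene Cpr49Ah at -0.45, the homeobox genes Dr and Antp at -0.43 and -0.40, Vajk3 at -0.41 and the glutathione transferase GstT4 at -0.41. CG15282 was at 0.39 with folds of 2.19 and 2.20, so its fold was level while its GFP-negative share was 36.1% against 53.2% in the authors' deposited tables.

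The genes of the G1-S transition and DNA replication differed by small amounts in 1 direction. Of 47 listed members 40 had a fold difference above 0, against 52.7% of all members, and their median was 0.043 against 0.0022. The detection difference was above 0 in 30 of the 47. PCNA, the sliding clamp of DNA polymerase, differed by 0.16, CycE, the G1-S cyclin, by 0.13, Mcm2, a helicase subunit, by 0.12 and RnrL, the large subunit of ribonucleotide reductase, by 0.12. CycE was detected in 72.2% and 53.1% of cells in the combined library and in 64.2% and 50.1% in the Med12 library, in the authors' deposited tables. Mcm2 was at 68.1% and 48.7% against 59.6% and 48.7% in the authors' deposited tables, with equal GFP-negative shares. CycD, the G1 cyclin, at -0.05 and Psf3, a subunit of the GINS complex, at -0.04 were the lowest of the list. None of the 47 reached 1.3-fold, PCNA alone reached 1.1-fold, and PolD1, the catalytic subunit of DNA polymerase delta, alone passed the rule for detection, at 0.49. Genes of G2 and mitosis had 29 of 43 above 0 with a median of 0.0068, led by CycB, a mitotic cyclin, at 0.14 and polo, a mitotic kinase, at 0.13.

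**Figure D3:**
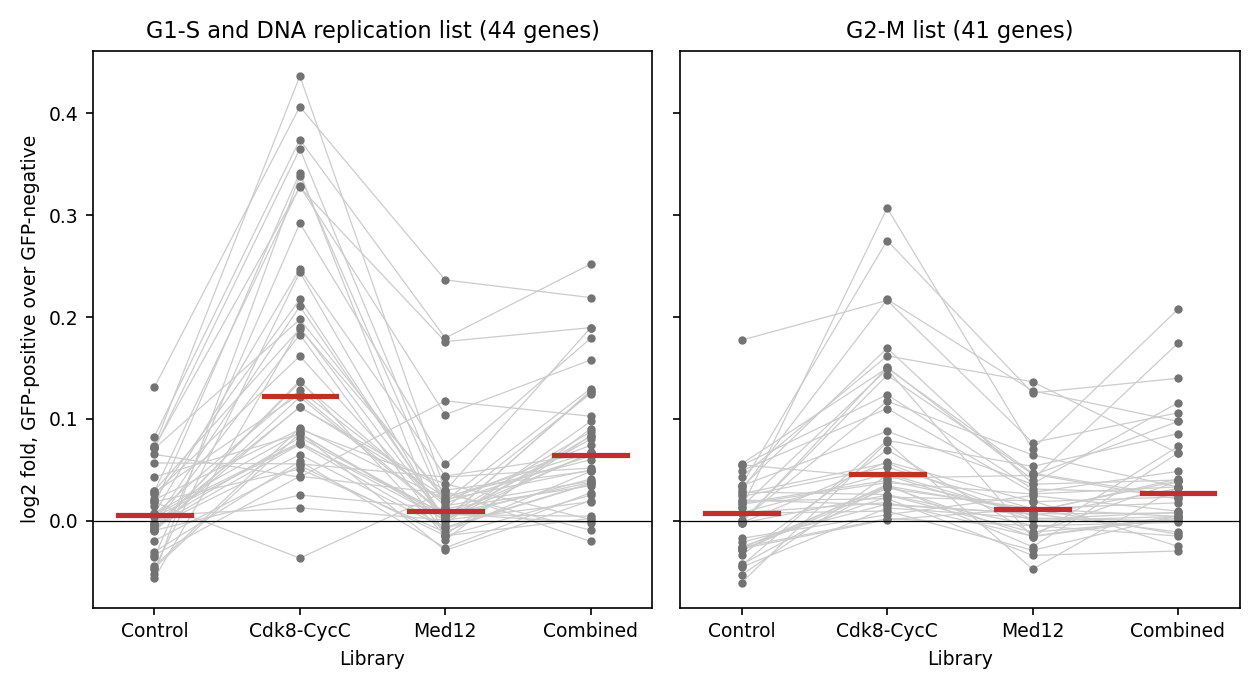
Log2 fold of GFP-positive over GFP-negative cells for replication genes and for mitotic genes in each of the 4 libraries, 1 point per gene listed in all 4, with medians. The replication medians are 0.0055 in the control, 0.12 in the Cdk8-CycC library, 0.0094 in the Med12 library and 0.065 in the combined library.

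The 44 replication genes listed in all 4 tables had medians within a library of 0.0055 in the control, 0.12 with Cdk8-CycC depletion, 0.0094 with Med12 depletion and 0.065 with the combined depletion. Replication genes were thus relatively higher in depleted cells of both libraries in which Cdk8 and CycC were targeted, and the median difference was larger without Med12 depletion, 0.13, than with it, 0.044. PCNA differed by 0.36 on the control background and by 0.16 on the Med12 background, and Mcm7, another helicase subunit, by 0.39 and 0.11. For 36 of the 44 genes both differences were above 0, as they were for 40.2% of all genes listed in the 4 tables. On the control background 75.8% of all genes were above 0 with a median of 0.025, and on the Med12 background their median was 0.0010. The mitotic genes had medians of 0.0078, 0.046, 0.012 and 0.027 in the control, Cdk8-CycC, Med12 and combined libraries, with 26 of 41 genes above 0 on both backgrounds. The share of cells in each phase was not analysed here.

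Protein folding in the endoplasmic reticulum lay on the other side. Of 47 listed genes 14 were above 0, against 52.7% of all members, and the median was -0.02. Calr, a calcium-binding chaperone, had a fold of 0.23 against 0.39, a difference of -0.17, and CaBP1, a disulfide isomerase, 0.11 against 0.24, a difference of -0.13. Hsc70-3, the fly BiP, was at -0.07, while Cnx99A, a calnexin, was at 0.10. The median fold of the 45 genes listed in all 4 tables was 0.053 in the control, 0.11 with Cdk8-CycC depletion, 0.19 with Med12 depletion and 0.16 with the combined depletion. The list was therefore above the control in all 3 depletions, and below Med12 depletion when Cdk8 and CycC were targeted as well. On detection the median of the list was near 0, at -0.0011.

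Lipid synthesis genes of the SREBP group were mostly above 0, 14 of 18 with a median of 0.03, against 52.7% of all members. FASN1, fatty acid synthase, differed by 0.09 in fold and by -0.13 in detection, and was detected in 58.9% and 27.5% of cells in the combined library against 44.7% and 19.7% in the Med12 library, in the authors' deposited tables. bbc, a phospholipid synthesis enzyme, differed by 0.11, Desat1, a fatty acid desaturase, by 0.06 and ACC, acetyl-CoA carboxylase, by 0.04. AcCoAS, acetyl-CoA synthetase, had a fold difference of 0.06 and passed the rule for detection at 0.55, with 18.8% and 5.8% of cells against 11.3% and 5.3% in the authors' deposited tables. By detection 10 of the 18 were above 0, with a median of 0.0054. All 13 of these genes listed in the 4 tables were above 0 on the control background, with a median of 0.05. On that background 75.8% of all genes were above 0 with a median of 0.025. Of the same 13 genes, 9 were above 0 on the Med12 background, where the median of all genes listed in the 4 tables was 0.0010. None reached 1.3-fold.

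Central carbon metabolism was divided by fold, for which 52.7% of all members were above 0, and not by detection. Glycolytic genes had 6 of 14 above 0 and a median of -0.02, with the glyceraldehyde phosphate dehydrogenases Gapdh2 at -0.12 and Gapdh1 at -0.11, the kinase Pgk at -0.09 and the enolase Eno at -0.07. Ldh, lactate dehydrogenase, was at 0.10, and its detection difference of 0.53 came with GFP-positive shares of 40.0% and 38.2% and GFP-negative shares of 17.2% and 24.5% in the combined and Med12 tables deposited by the authors. Genes of the pentose phosphate pathway and the citric acid cycle had 12 of 16 above 0 and a median of 0.04, led by mAcon1, mitochondrial aconitase, at 0.14 and Fum1, a fumarase, at 0.11. Cytoplasmic ribosomal protein genes had 26 of 80 above 0 with a median of -0.01, and mitochondrial ribosomal protein genes 26 of 59 with a median of -0.0068. Nuclear genes of the respiratory chain had 41 of 63 above 0 with a median of 0.0076. By the centred detection difference, 8 of the 14 glycolytic genes were above 0, with a median of 0.015. For the pentose phosphate and citric acid cycle genes it was 8 of 16, with a median of -0.0015. Above 0 by detection were also 3 of 80 cytoplasmic and 37 of 59 mitochondrial ribosomal protein genes, and 17 of 63 respiratory chain genes. A gene detected in nearly all cells of every set has little room to differ, and centring alone places it just below 0. nub, at 100% in every set, stood at -0.05 in this way, and the cytoplasmic ribosomal median was also -0.05. By centred log2 odds of detection the cytoplasmic ribosomal median had the opposite sign, at 0.61. The low counts by detection are therefore not read as a result.

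**Figure D4:**
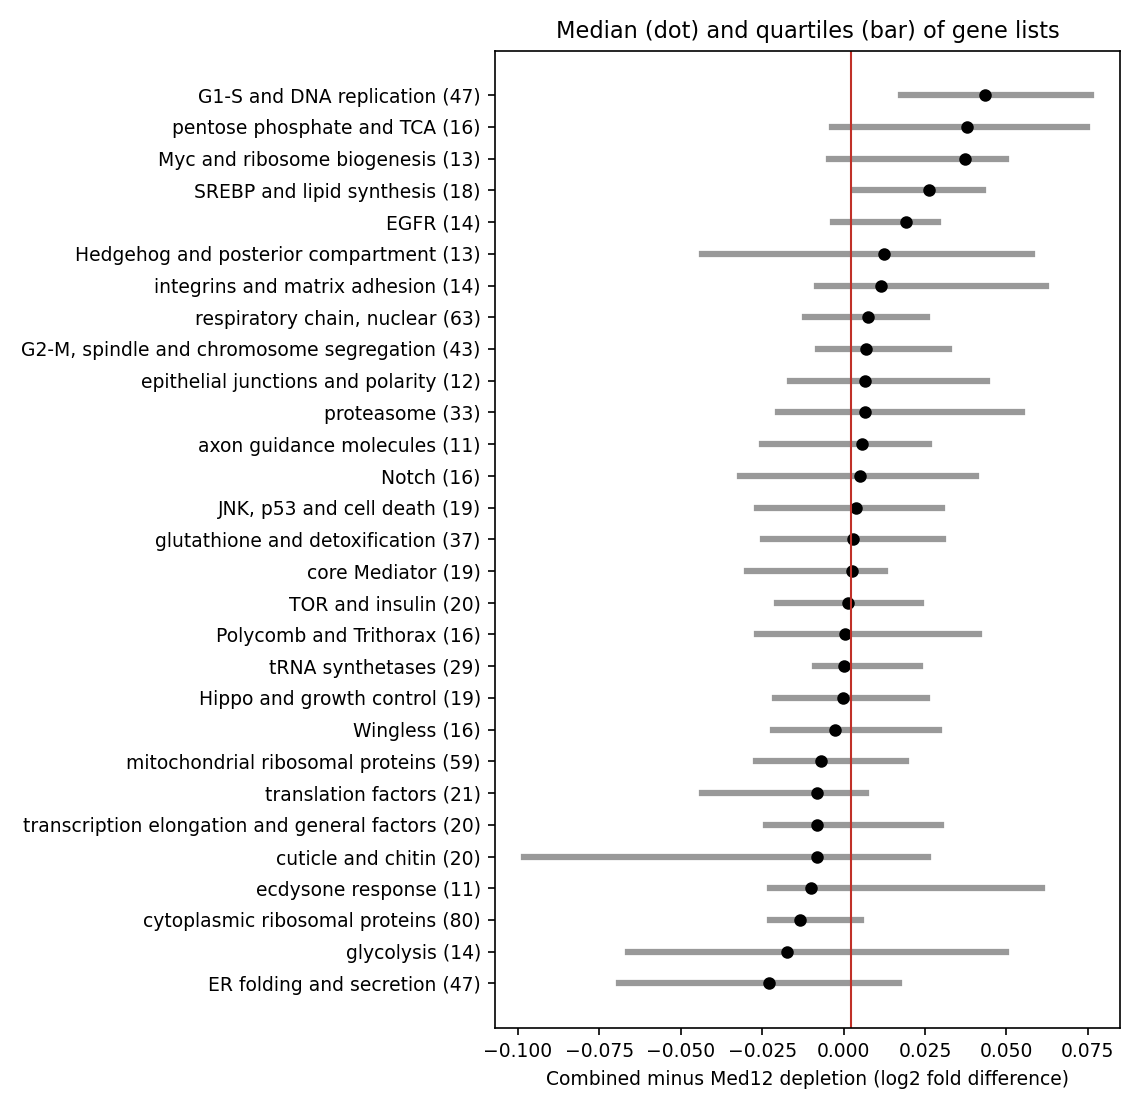
Fold difference, combined minus Med12 (log2), for gene lists with at least 10 listed members, with a dot at the list median and a bar between its quartiles. The line marks the median of all members. Marker lists and lists taken from earlier results of these data are left out. Replication genes have the median furthest above 0 at 0.043, while the lists of endoplasmic reticulum folding genes and ribosomal proteins have medians of -0.02 and -0.01.

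The signalling pathways linked to the kinase module lay around 0 as groups. Notch genes had 8 of 16 above 0 with a median of 0.0050, Wingless genes 8 of 16 with a median of -0.0026, Hippo genes 9 of 19 with a median near 0 and EGFR genes 9 of 14 with a median of 0.02. Single members of these lists differed more than the lists did, with Ser, vn, ds and fj named above. JAK-STAT genes had 6 of 7 above 0 with a median of 0.03, led by chinmo, a BTB zinc finger factor, at 0.15 and dome, the receptor, at 0.11. By detection the list went the other way, with 2 of the 7 above 0, 5 below and a median of -0.06. chinmo was detected in 77.4% and 64.0% of cells in the combined library against 52.8% and 40.3% in the Med12 library in the authors' deposited tables, higher in both cell sets, and its detection difference was -0.17. Genes of core Mediator had 10 of 19 above 0 with a median of 0.0026.

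The same addition, Cdk8-CycC depletion, could be read on a background with Med12 present by subtracting the control fold from that of the Cdk8-CycC library, a difference that shares no library with the one above. It was available for 4300 of the members. Over genes the 2 differences had a Pearson correlation of 0.18 and a Spearman correlation of 0.15, and 55.0% of genes lay on the same side of both medians. Genes are not independent replicates, all differences rest on 1 library per genotype, and from detection ratios Pearson's value was 0.073. On the control background 0.0394% of genes were higher and 0.0788% lower by 1.3-fold. At 1.1-fold, 3.19% of genes were higher and 0.808% lower there. Past that limit on both backgrounds, 6 genes were higher: PCNA, Cht10, nord, Msp300, a nesprin that links nuclei to the cytoskeleton, NaPi-III, a phosphate transporter, and Rpn2, a proteasome subunit. nord differed by 0.21 with Med12 depleted and by 0.18 without, Cht10 by 0.20 and 0.25, and Msp300 by 0.17 and 0.28. Lower on both were CycC, at -0.31 and -0.24, the cuticle protein gene Cpr49Ah, at -0.15 and -0.15, CG17032, at -0.19 and -0.17, and the GFP transgene, at -0.17 and -0.95.

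**Figure D5:**
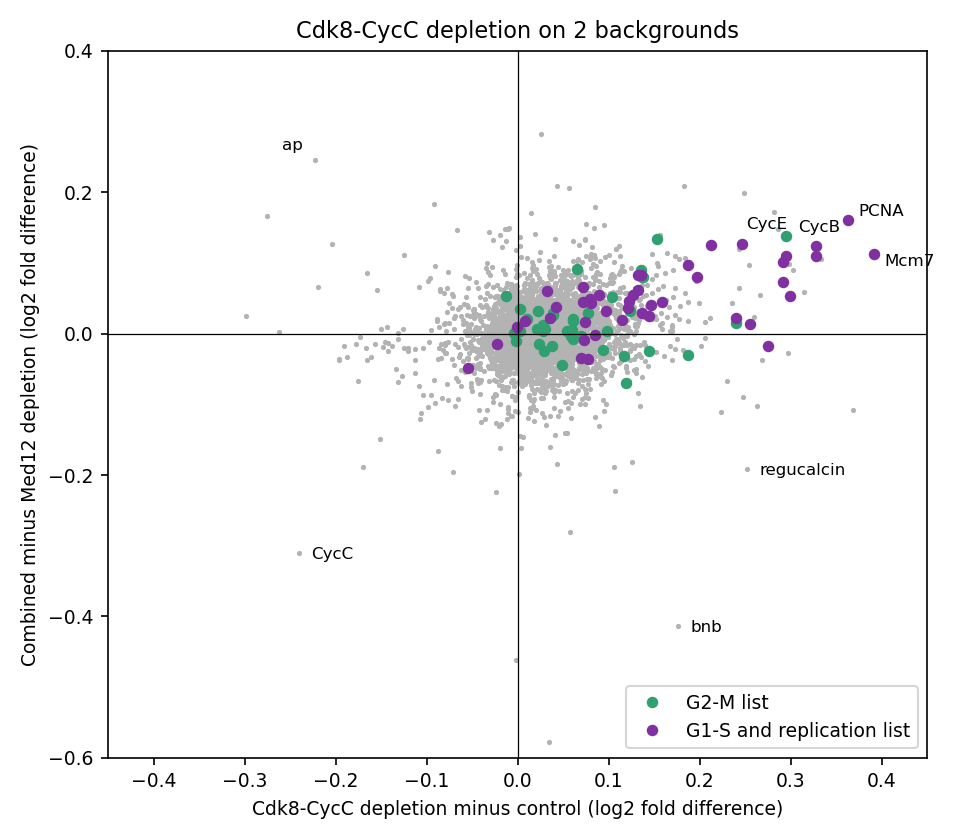
Fold difference (log2) from Cdk8-CycC depletion without Med12 depletion (x, Cdk8-CycC library minus control) against that with Med12 depletion (y, combined minus Med12 library), 1 point per gene listed in all 4 tables, with GFP and Ubx outside the axes. The cloud is nearly round, with a Pearson correlation of 0.18, and ap, CG3097, bnb and regucalcin lie in the quadrants of opposite sign.

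Ser, ptc, mirr, CG7322, grass and vvl differed on the Med12 background and hardly on the control background. There they stood at 0.03 for Ser, 0.06 for ptc, 0.04 for mirr, 0.03 for CG7322, -0.0017 for grass and -0.02 for vvl. Whether these differences depend on Med12 was not tested, since each background has 1 library per genotype. The genes were also picked from the 12 highest and 12 lowest on the Med12 background, and genes picked this way tend to have smaller values elsewhere. From the same 24 genes, CycC, nord and Cht10 passed 1.1-fold in the same direction on both backgrounds, and ap and bnb in opposite directions.

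Markers of other cell types were listed unevenly. Of 7 myoblast markers 2 were listed in the combined table and 0 in the Med12 table, and of 7 hemocyte markers 1 and 0. Wider lists held 5 myoblast and 3 hemocyte genes listed in both tables. The 5 myoblast genes had summed shares of 175.9 and 125.9 percentage points in the combined library against 177.4 and 136.1 in the Med12 library, and the 3 hemocyte genes 90.2 and 51.8 against 87.3 and 59.4, in the authors' deposited tables. Of 7 peripodial markers 6 were listed in both, with summed GFP-positive and GFP-negative shares of 299.4 and 163.8 percentage points in the combined library and 277.9 and 156.1 in the Med12 library in the authors' deposited tables. For 5 of 6 tracheal markers listed in both these sums were 322.0 and 296.7 against 286.5 and 274.1, and for 3 of 9 markers of sensory organ precursors and neurons 169.7 and 115.2 against 134.1 and 96.6, in the authors' deposited tables. The peripodial, tracheal and sensory sums were higher in the combined library in both cell sets, while the myoblast sums and the hemocyte sum of GFP-negative cells were lower. The sums do not measure the content of these cell types. Ubx, counted as peripodial, had a fold of 4.62 in the control. vvl, counted as tracheal, was detected in 91.6% and 94.3% of the nub-positive cells of the combined library in the authors' deposited tables. The part of other cell types in the differences was not tested.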

How the data were processed

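Gene tables from 4 wing disc libraries, 1 per genotype, were used. Reads were processed with Cell Ranger 3.0.2 and Seurat, per the submitters' processing notes. The genome build, cell numbers, depth, doublet treatment and strand setting were not given in the sources used here. Counting intervals therefore could not be computed. Each deposited table holds an average fold on the natural log scale, taken as Seurat's default with its pseudocount, the fraction of detecting cells in each set, and a p-value, all made by the authors. Every listed gene had a deposited p-value below 0.01, so an unlisted gene is not a gene without expression, and those p-values, computed over cells, entered no call. Shares are printed as percent.

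The deposited log values were signed by the cell set named for each gene and divided by the natural log of 2, since the deposited signed column was blank for 853 genes of the combined table and had the same sign wherever it was filled. Differences between tables were computed with Python 3, numpy and pandas and tested on simulated tables. No test between genotypes was run, and cells are not replicates. The named genes were the targeted genes, the 12 highest and 12 lowest fold differences, the 6 highest and 6 lowest detection differences, list members past a size limit and leading list members, all among genes detected in at least 10% of 1 cell set. Genes listed in 1 table, the overlap of the 2 backgrounds at 1.1-fold, and the genes set against both backgrounds were named after their values were seen. The members and gene lists were chosen with earlier results of these data known. Overlaps were sought only for 57 genes, named as targeted or marker genes, by rank or by a size limit. Leading list members and genes named after their values were seen were not checked unless among these 57. Of the 57 genes, 56 were found in an Ensembl annotation of the fly, read only for overlaps. Exons of 17 overlapped another annotated gene, CycC and CG33332 on opposite strands among them.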

Additional observations from a re-analysis of the deposited data

Results flagged for a closer look

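Several genes had opposite signs in 2 settings, and in no case was the difference tested, because there was 1 library per genotype. CycC, at a fold difference of -0.31, was below GFP-negative levels in the combined library and above them in the Med12 library, and it is the transcript targeted in the former only. nrm, at 0.34, was above GFP-negative levels in the combined library and slightly below them in the Med12 library.

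The added Cdk8-CycC depletion went with differences of opposite sign on the Med12 and control backgrounds in 4 genes past 1.1-fold on both. ap differed by 0.25 with Med12 depleted and by -0.22 without, and CG3097 by 0.17 and -0.28. bnb differed by -0.41 with Med12 depleted and by 0.18 without, and regucalcin, a calcium-binding protein gene, by -0.19 and 0.25. ap drives the transgenes of all 4 genotypes.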

How the results depend on the processing

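No paired analysis was possible because each genotype had 1 library. Other limits moved the counts of genes. For the fold, 3 genes were higher and 5 lower at 1.2-fold, 37 and 33 at 1.1-fold, and 0 lower at 1.5-fold. Read as base 2 values, 1 gene was lower. With unlisted genes set to 0, 1 was higher and 5 lower. For detection, 216 genes were higher and 58 lower at a ratio of 1.2, 26 and 8 at 1.5, 48 and 13 with detection in at least 25% of cells, and 262 and 154 with log2 odds. With no detection limit 63 were lower, against 25. Log2 odds moved the median detection difference to 0.10, and detection ratios moved the Pearson correlation between the 2 backgrounds to 0.073. CG7322 and grass reversed, to 0.34 and 0.15, when read by detection, and the cause was not tested. Of 47 lists, the median changed sign in 23 by detection ratio, 19 by log2 odds, 9 with unlisted genes at 0 and 3 with detection of at least 10%. Without the cell cycle lists, a setting added after seeing the data, the correlation was 0.15. The spread between libraries of 1 genotype is unknown, which limits every difference.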

Other observations

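Genes listed in only 1 of the tables have no difference, but their folds show which regional genes were listed in which library. In the authors' deposited combined table and not in that for Med12 stood zfh2, a transcription factor of the hinge, at -0.67, nkd, a Wingless feedback inhibitor, at -0.44, emc, an inhibitor of proneural factors, at -0.34 and kn, a factor of the central intervein region, at -0.26. All were lower in GFP-positive cells. In the authors' deposited Med12 table and not in the combined one stood the heat shock gene Hsp68 at -0.50, the Notch target E(spl)m7-HLH at -0.34, the ecdysone-inducible ImpE1 at -0.34 and chrb, an inhibitor of TOR signalling, at -0.29. These genes were chosen after their values were seen, and an unlisted gene may have had any fold.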
